A study of Drosophila melanogaster with 3 samples.

Results

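One-strand promoter peaks are the reproducible Sox15 peaks that lie beside the start of a single transcription direction. They were chosen by position alone. A peak of the reproducible dm6 set was a member when its summit lay within 500 bp of at least 1 protein-coding transcript start site of the Ensembl BDGP6 annotation and all start sites within that distance were on the same strand. This gave 1066 of 4555 peaks (23.4%, 95% Wilson interval 22.2 to 24.65%). Another 688 peaks lay near start sites of both strands and are called shared divergent promoter peaks, and 2801 lay away from coding start sites. No measured value entered the choice, other than that every peak had already passed the authors' threshold of reproducibility.

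Occupancy was mapped by chromatin immunoprecipitation and sequencing (ChIP-seq) in whole Drosophila melanogaster prepupae of a transgenic line with GFP fused to the C terminus of Sox15, precipitated with an antibody against GFP. There was 1 group of 3 biological replicates, each with males and females pooled and of unknown age, and chromatin had been sonicated to 200 to 800 bp. The tagged protein comes from a transgene, and the whole body mixes tissues that do and do not make Sox15, so a peak cannot be assigned to a cell type. No second condition was measured, and a control named in the listing of the files was not analysed here.

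Sox15 belongs to the Sox family of transcription factors, which bind DNA through a high-mobility-group domain, and it is known in flies for roles in the development of bristle sense organs and of the wing. A core promoter is the stretch around a transcription start site on which RNA polymerase II assembles. In Drosophila, promoters of widely active genes often carry the DNA replication-related element (DRE), Motif 1 or Motif 7, whereas developmentally regulated promoters more often carry a TATA box, an initiator or repeats of GA bound by GAGA factor.

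The promoters below are read in the direction of the gene and end 20 bases past its annotated start. They come from the RefSeq Release 6 genome (dm6 coordinates). The first set shows 5 of the 20 members of highest signal, each with a summit in the 250 bp before the start. Other members of like or higher signal are not shown. The set is given because 4 of the 5 hold a word that is described below with its distribution over signal, and the fifth holds GAGA repeats. Capitals mark matches on either strand to the repeat GAGAGAG, called GAGA in what follows, to DRE (TATCGATA), Motif 1 (GGTCACAC), Motif 7 (CAGCNCTA or CATCNCTA), the TATA box (TATAAA) and the E-box (CAGCTG), and to the word TACGCCC, which was chosen after the strongest sequences had been seen. They are CG14100 on the minus strand (chr3L:19590505-19590774), Ugalt on the minus strand (chrX:2703833-2704102), CG31145 on the minus strand (chr3R:23669640-23669909), Hsp27 on the plus strand (chr3L:9383813-9384082) and CG18549 on the plus strand (chr3R:12449046-12449315).
CG14100: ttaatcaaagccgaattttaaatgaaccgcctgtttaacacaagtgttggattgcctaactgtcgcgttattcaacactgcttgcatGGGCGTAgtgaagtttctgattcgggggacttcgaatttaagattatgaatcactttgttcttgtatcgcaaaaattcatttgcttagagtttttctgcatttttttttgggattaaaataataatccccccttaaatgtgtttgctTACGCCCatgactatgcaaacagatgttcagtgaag
Ugalt: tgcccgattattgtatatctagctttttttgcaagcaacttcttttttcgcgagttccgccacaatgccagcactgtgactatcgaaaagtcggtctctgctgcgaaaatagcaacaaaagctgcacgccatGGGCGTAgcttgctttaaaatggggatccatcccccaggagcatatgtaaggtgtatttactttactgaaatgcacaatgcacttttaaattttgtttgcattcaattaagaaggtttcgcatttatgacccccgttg
CG31145: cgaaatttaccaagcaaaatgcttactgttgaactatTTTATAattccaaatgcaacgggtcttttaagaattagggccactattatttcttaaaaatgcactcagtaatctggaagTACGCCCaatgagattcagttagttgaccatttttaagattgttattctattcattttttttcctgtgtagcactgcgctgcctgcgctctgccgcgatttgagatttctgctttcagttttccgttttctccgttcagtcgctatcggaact
Hsp27: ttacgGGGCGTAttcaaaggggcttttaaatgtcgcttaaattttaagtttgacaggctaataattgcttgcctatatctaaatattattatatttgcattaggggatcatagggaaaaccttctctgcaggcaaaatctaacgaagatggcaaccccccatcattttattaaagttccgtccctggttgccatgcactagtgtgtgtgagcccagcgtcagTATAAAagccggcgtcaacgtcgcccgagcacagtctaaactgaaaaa
CG18549: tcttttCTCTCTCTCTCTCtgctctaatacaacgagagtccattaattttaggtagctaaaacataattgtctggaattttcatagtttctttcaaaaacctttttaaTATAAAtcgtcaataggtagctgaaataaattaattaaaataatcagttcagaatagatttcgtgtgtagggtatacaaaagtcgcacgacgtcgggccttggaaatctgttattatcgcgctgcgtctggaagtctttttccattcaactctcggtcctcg
The second set shows 1 member of high signal for each of 4 core motifs described below, with only that motif in capitals. It holds larp on the minus strand (chr3R:28326245-28326394) for GAGA, CG1142 on the minus strand (chr3R:7473762-7473911) for Motif 1, Mcad on the plus strand (chr3L:7719220-7719369) for Motif 7 and PlexA on the minus strand (chr4:1027082-1027231) for DRE.
larp: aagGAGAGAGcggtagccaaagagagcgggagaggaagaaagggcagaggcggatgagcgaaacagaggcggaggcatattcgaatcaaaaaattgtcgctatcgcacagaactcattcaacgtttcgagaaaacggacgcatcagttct
CG1142: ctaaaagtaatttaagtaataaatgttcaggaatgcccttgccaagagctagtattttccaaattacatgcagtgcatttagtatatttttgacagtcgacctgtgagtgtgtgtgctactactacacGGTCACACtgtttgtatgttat
Mcad: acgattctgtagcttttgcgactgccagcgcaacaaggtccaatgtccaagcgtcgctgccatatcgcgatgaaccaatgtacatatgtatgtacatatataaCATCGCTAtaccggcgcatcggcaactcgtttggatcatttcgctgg
PlexA: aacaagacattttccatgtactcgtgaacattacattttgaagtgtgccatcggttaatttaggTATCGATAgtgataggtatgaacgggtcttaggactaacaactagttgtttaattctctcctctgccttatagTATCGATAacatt

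The strongest member was CG14100, a gene known by its annotation number only, with a pooled signal of 3852, the highest of the whole reproducible set. Signal is the authors' peak value, of unstated scale, and is compared only within 1 list. The replicate lists gave 1723, 1104 and 1058 for CG14100, which ranked first in each of them, with its summit 97 bp upstream of the start (FBgn0036889, 3L, 19590439 to 19590807). Ugalt, which encodes a transporter of UDP-galactose into the Golgi, followed at 2974 pooled and at 1347, 849.7 and 800.7 in the replicates (FBgn0024994, X, 2703709 to 2704065, summit 41 bp upstream). PNPase, the mitochondrial polynucleotide phosphorylase that degrades RNA, had 2419 pooled and 1158, 691.1 and 574.5 in the replicates, with its summit 85 bp downstream of the start (FBgn0039846, 3R, 31404497 to 31404826). These 3 peaks were among the 9 of highest rank in every list.

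The next members in order of signal include named genes of several functions. The promoter of mRpL41, a protein of the mitochondrial large ribosomal subunit, had a pooled signal of 2096 and replicate signals of 1132, 512.3 and 462.2. That of eIF6, which in yeast and mammals keeps free large ribosomal subunits from joining small ones, had 2018 pooled and 892.7, 623.8 and 512.4 in the replicates. The Polycomb group gene ph-p, a subunit of a repressive chromatin complex, had 1994 pooled and 905.3, 641.4 and 533.7 in the replicates, with its summit 470 bp upstream. The promoter of larp, an RNA-binding protein whose human relative acts on ribosomal protein mRNAs below the TOR kinase, had 1977 pooled and 927.1, 629.5 and 434.2 in the replicates. Hsp27, a small heat shock protein, had 1659 pooled and 786.8, 510.5 and 373.5 in the replicates. Sox14, a Sox gene induced by the moulting hormone ecdysone, had 1653 pooled and 770.9, 467.3 and 419.1 in the replicates. Each of these peaks had its highest value in the list of replicate 1 and its lowest in that of replicate 3, as did the median of all members, so the size of a value is read only against other peaks of its own list.

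The rest of the 20 strongest members ran down to a pooled signal of 1223 at Sesn, which encodes sestrin, an inhibitor of TOR signalling. They were CG31145 (2008), CG1888 (1896), GstE13 (1632), a glutathione S-transferase, CG18549 (1541), Trp1 (1522), a protein of the endoplasmic reticulum translocation channel, CG13921 (1429), Hpf1 (1422), whose human relative is a cofactor of histone ADP-ribosylation, gish (1397), a casein kinase, CG13501 (1367) and Fkbp14 (1253), a prolyl isomerase of the endoplasmic reticulum. All 20 were matched among the top 4555 peaks of all 3 replicates.

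Over all members, the median pooled signal was 216.0, with quartiles of 149.6 and 377.1 and a lowest value of 116.7, so most members lay near the lower end of a long range. The median was 232.0 at shared divergent promoter peaks and 196.6 at peaks away from start sites. In replicate 1 the medians were 108.3 for members, 116.9 for shared divergent and 97.6 for distant peaks. They were 59.8, 63.2 and 54.2 in replicate 2 and 49.5, 53.0 and 46.2 in replicate 3, in the same order of classes. Members therefore stood between the other classes in every list. Of the members, 29.3% (26.6 to 32.1%) were in the strongest 25% of the reproducible set, against 21.6% (20.1 to 23.1%) of peaks away from start sites, a difference called by Fisher's exact test on peaks (two-sided, Benjamini-Hochberg adjusted p = 2.12e-06). Shared divergent peaks had 32.4% (29.02 to 36.0%), and their difference from members was not called by the same exact test (adjusted p = 0.168). Peaks and promoters are the units of every test here. They share the same 3 libraries, so a p-value speaks of positions in these libraries and not of other animals.

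**Figure D1:**
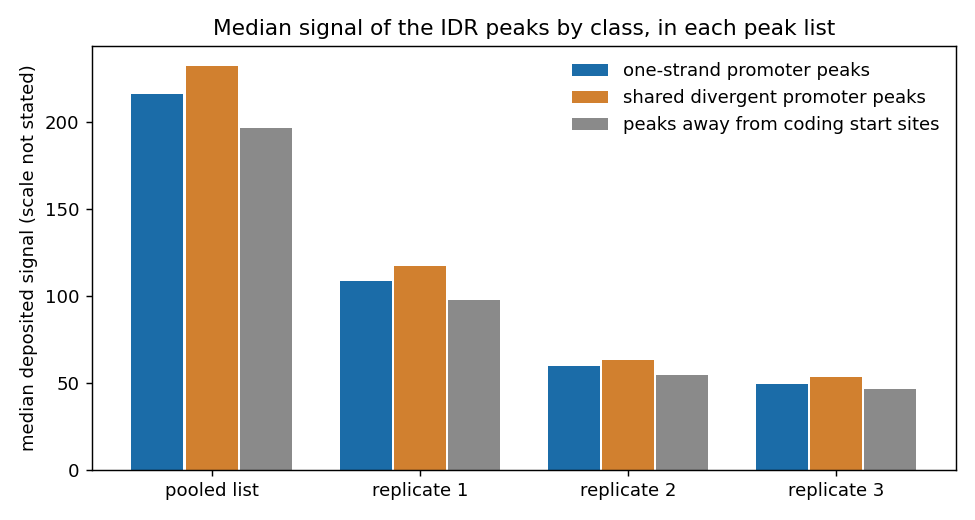
Median deposited signal (vertical axis, scale not stated) of the one-strand promoter peaks, the shared divergent promoter peaks and the peaks away from coding start sites, in the pooled list and in each of the 3 replicates. In every list the one-strand peaks (216.0 in the pooled list) stand below the shared divergent peaks (232.0) and above the distant peaks (196.6).

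Reproducibility of the members was close to that of the whole set. Of 1066 members, 762 (71.5%, 68.7 to 74.1%) were covered over at least 50% of their length by a top peak in all 3 replicates, against 74.0% (72.6 to 75.5%) of the other reproducible peaks and 73.4% of all of them. Fisher's exact test did not call this difference (two-sided, adjusted p = 0.156). It did when every peak of the relaxed replicate lists could match (94.3% of members against 96.1% of the others, exact test, unadjusted p = 0.0125). A further 237 members were matched in 2 replicates, 65 in 1 and 2 in none. By class, with no test, 77.2% (73.9 to 80.2%) of shared divergent peaks and 73.3% (71.6 to 74.9%) of distant peaks were matched in all 3 replicates. Top peaks of replicate 3 matched 83.5% of members, 87.9% of shared divergent and 86.5% of distant peaks. In replicates 1 and 2 members were not the lowest class. When each replicate was classified by itself, one-strand peaks made up 23.1%, 23.4% and 22.7% of its top 4555 peaks (23.1 ± 0.362%, SD, n = 3). Signals of the same members in 2 lists had Spearman correlations of 0.853, 0.830 and 0.843 across 1041, 1018 and 1014 members. These correlations are descriptions across positions that share each library.

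The members lay mainly upstream of their nearest start site. Of 1066 summits, 921 (86.4%, 84.2 to 88.3%) were upstream of the nearest start site, 143 were downstream and 2 at the site. Upstream of the nearest start site did not always mean outside a gene. By annotation 520 members (48.8%, 45.8 to 51.8%) lay outside coding genes, against 70.9% of shared divergent peaks, and 409 (38.4%, 35.5 to 41.3%) lay in an intron or other position of a coding gene, against 10.6% of shared divergent peaks. The upstream summits had a median distance of 207 bp, with quartiles of 131 and 314 bp. The fullest 100-bp interval was that from 200 to 100 bp before the start, which held 28.0% of members, and the 100 bp just before the start held 12.8%. Members on either side lay at a median of 207 bp from the nearest start site, against 100 bp for shared divergent peaks, which have start sites of both strands nearby. Peaks of the single replicates repeated the upstream excess, with 85.5%, 86.0% and 85.2% (85.6 ± 0.428%, SD, n = 3). The strongest 25% of the set took 29.8% of upstream and 26.6% of downstream members, which Fisher's exact test did not call (two-sided, p = 0.490).

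**Figure D2:**
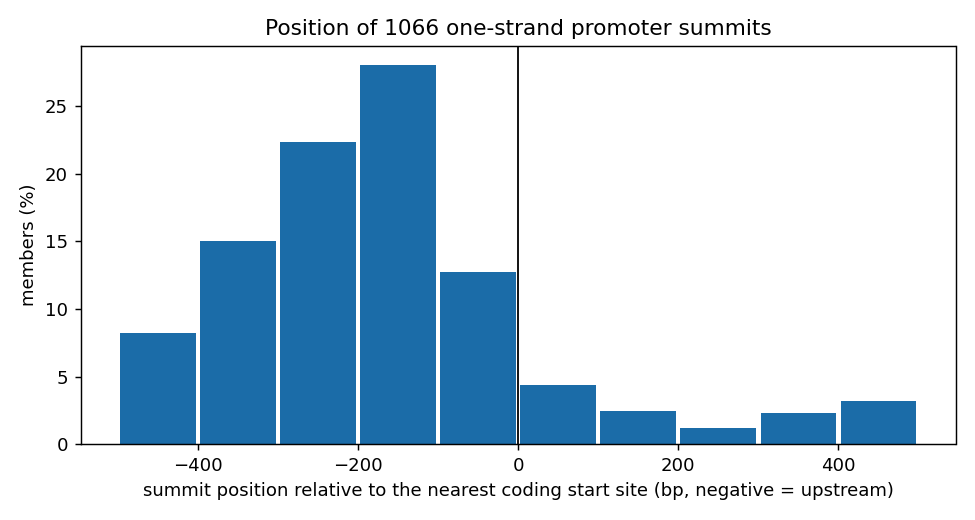
Share of the 1066 one-strand promoter summits (vertical axis, %) in 100-bp intervals of position relative to the nearest coding start site (horizontal axis, bp, negative upstream). The interval from 200 to 100 bp upstream is the fullest with 28.0%, and the intervals downstream hold 1.22 to 4.41% each.

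The limit of 500 bp cuts through a continuous range. Just inside it lay CG6602 at 500 bp with a pooled signal of 180.9, Pcyt1 at 499 bp with 170.0 and CG8180 at 498 bp with 154.9. Just outside lay CG17896 at 502 bp with 778.7, CG45544 at 502 bp with 189.0 and cu at 503 bp with 203.8. On the other strand, the nearest coding start site was a median of 4387 bp from a member, and 119 members (11.2%) had one within 1000 bp.

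Most members belonged to 1 gene and 1 start site. There was a single start site within the limit at 880 members (82.6%), and 1036 had start sites of 1 gene only. The 1066 members named 957 nearest genes, of which 860 had 1 member and 88 had 2. Rtnl1, a reticulon that shapes the endoplasmic reticulum, had 5 members, with pooled signals of 1208, 396.2, 256.3, 216.2 and 209.6, of which the peaks of 256.3 and 209.6 overlap and share a start site. The phosphatase gene Ptpmeg2 had 4, with signals of 996.0, 729.2, 387.6 and 156.3. The strongest of the Rtnl1 peaks had 610.0, 347.3 and 274.9 in the replicates, and the strongest of the Ptpmeg2 peaks 485.2, 295.4 and 243.0. Another 7 genes had 3 members each, namely Fkbp14, Mhcl, Moe, dnc, l(3)neo38, larp and ph-p.

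The density of members was lower than that of shared divergent peaks once the amount of sequence was counted. Sequence within 500 bp of start sites of 1 strand covered 10.2% of the 6 arms, and that near start sites of both strands 1.25%. Members reached 78.0 summits per Mb of the first kind, against 411 per Mb of the second for shared divergent peaks and 23.6 per Mb of the remaining sequence for distant peaks. Thus 60.8% (58.5 to 63.0%) of promoter summits were members, although 89.1% of the promoter sequence was of the one-strand kind. Below the reproducible threshold, 17.2% of the 9609 weaker pooled peaks were of the one-strand kind, and of these 72.0% had their summit upstream.

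Genes with a member differed in structure from the 8611 unoccupied one-strand genes. Each of these had at least 1 one-strand start with no pooled summit within 500 bp and was not the nearest gene of a member. A pooled peak at another of its starts was allowed. The median length was 5577 bp for member genes and 2060 bp for unoccupied genes. More than 1 start site was annotated for 58.3% of member genes and 26.7% of unoccupied genes. A gene could hold a member at any of its start sites, so genes with more of them had more chances to be chosen. The nearest coding gene upstream was oriented head to head at 39.8% (36.8 to 42.9%) of member genes, against 31.7% (30.7 to 32.7%) of unoccupied genes, at a median distance of 2477 bp for member genes and 2052 bp for unoccupied genes. Fisher's exact test, added after the data had been seen, called this difference (two-sided, adjusted p = 9e-07). The start lay inside another coding gene at 8.99% (7.33 to 11.0%) of member genes and 17.9% (17.1 to 18.8%) of unoccupied genes, also called by the exact test (adjusted p = 3.05e-13). A neighbour in tandem was found for 51.2% of member genes and 50.3% of unoccupied genes, a difference that was not called by the exact test (adjusted p = 0.586). Per 100 one-strand genes, the X chromosome had 12.6 members, and the other arms had 9.01 to 9.90. The parts of gene length and of the number of start sites in these differences were not tested.

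Among 14 motifs, the difference of highest ratio between the promoters of member genes and unoccupied genes was in GAGA repeats, the sites of GAGA factor, which opens chromatin at developmental promoters. In windows from 250 bp before to 50 bp after the start, GAGAGAG was found at 16.6% (14.4 to 19.1%) of 957 member genes and 6.57% (6.07 to 7.12%) of 8611 unoccupied genes, and at 5.87% of all 13945 coding promoters. The ratio was 2.53 (Fisher's exact test, two-sided, adjusted over 14 motifs, p = 3.96e-22). The window of a member gene was placed at the start site nearest its summit. That of an unoccupied gene was placed at its most upstream one-strand start with no pooled summit within 500 bp. Within the genes at least as long as the shortest quartile of member genes (2337 bp), a restriction chosen after seeing the data, the ratio was 1.69 and was still called by the exact test (adjusted p = 5.03e-07).

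Other motifs also differed. By Fisher's exact test, those higher in member genes were Motif 7 (8.99% against 5.91% of unoccupied genes, adjusted p = 0.00138), the E-box CAGCTG (18.9% against 14.4%, adjusted p = 0.00138) and CA repeats, written CACACACA (7.52% against 4.98%, adjusted p = 0.00361). By the same exact test, those lower in member genes were the TATA box (37.6% against 44.4%, adjusted p = 4.06e-04), CAGGTAG, the site of the early activator Zelda (0.836% against 2.06%, adjusted p = 0.0145), and the nuclear receptor site AGGTCA (4.07% against 5.96%, adjusted p = 0.0317). CAGGTAG had the lowest ratio of the 14 motifs, 0.407, and was in 8 member promoters. None of these 6 was called by the exact test within the longer genes, where adjusted p ran from 0.420 to 0.595. DRE (6.17% against 5.11%), Motif 1 (5.43% against 4.19%) and the initiator, TCAGTT or TCAGTC (37.6% against 39.1%), were not called. The Sox cores AACAAT (27.6% of member genes against 30.1% of unoccupied genes, adjusted p = 0.139) and ACAAAG (19.1% against 18.8%, adjusted p = 0.828) were not called by the exact test either, nor were the GATA factor site AGATAA (16.6% against 19.3%, adjusted p = 0.0802) and the homeodomain core TAATTA (16.7% against 19.0%, adjusted p = 0.136). AACAAT was lower in member genes and called by the exact test when only peaks matched in all 3 replicates were used (adjusted p = 0.00867). The exact test also called it lower with the upper 50% of peaks by signal (adjusted p = 0.0166). The same held with peaks matched in both other replicates when replicate 1, 2 or 3 was left out (exact test, adjusted p = 0.0275, 0.0306 and 0.00930). In the same exact test AGATAA was called lower without replicate 1 or replicate 2 (adjusted p = 0.0309 and 0.0303) and TAATTA without replicate 1 (adjusted p = 0.0289). In a window from 100 bp before to 50 bp after the start, the exact test called both lower (adjusted p = 0.0114 for AGATAA and 0.00798 for TAATTA). The lower share of TATAAA was more marked in that window, with a ratio of 0.487 (exact test, adjusted p = 9.45e-21). GAGA had a ratio of 3.28 there (exact test, adjusted p = 1.10e-20). Other settings ended calls. CAGGTAG was not called by the exact test with peaks matched in all 3 replicates (adjusted p = 0.0540), with the upper 50% of peaks by signal (adjusted p = 0.121) or in a window from 100 bp before to 50 bp after the start (adjusted p = 0.150). Motif 7 was not called by the exact test with the upper 50% of peaks by signal (ratio 1.18, adjusted p = 0.419), nor AGGTCA in the narrower window (adjusted p = 0.0872). Among all coding promoters, Motif 7 was in 9.74%, the E-box in 17.7%, CA repeats in 4.02%, TATAAA in 45.8%, CAGGTAG in 1.64%, AGGTCA in 5.88%, DRE in 9.36%, Motif 1 in 7.70%, the initiator in 35.1%, AACAAT in 32.1% and ACAAAG in 18.3%.

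**Figure D3:**
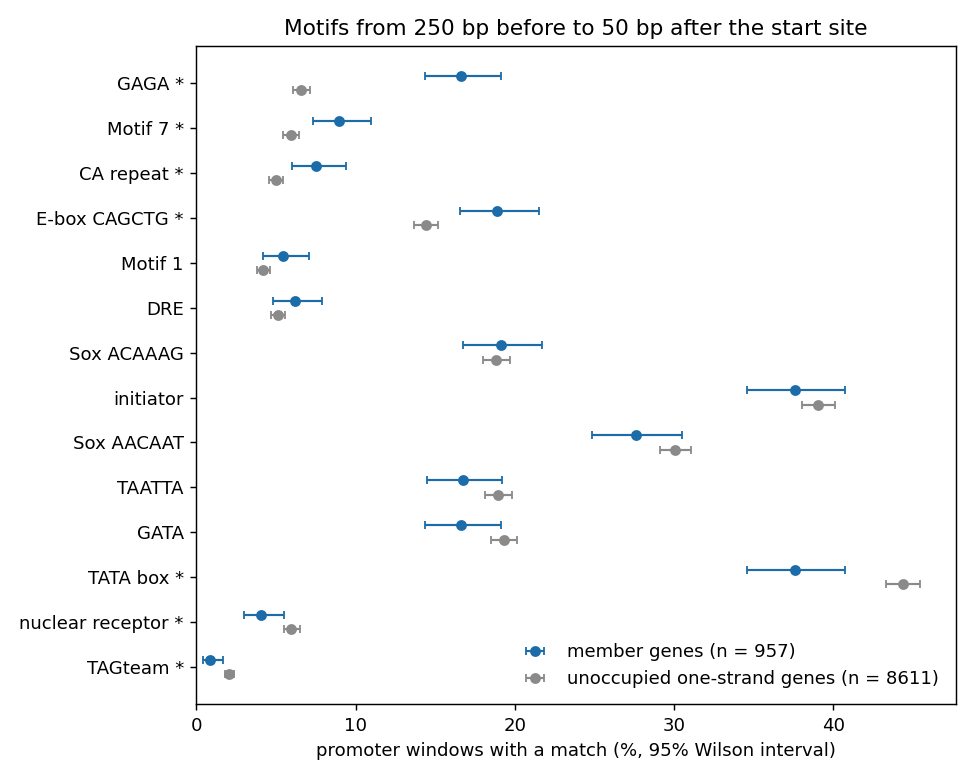
Share of promoter windows with a match (horizontal axis, %, points with 95% Wilson intervals) for 14 motifs (rows), in member genes (blue) and unoccupied one-strand genes (grey), ordered by the ratio of the shares, with a star where the adjusted p is below 0.05. GAGA stands apart with 16.6% of member genes and 6.57% of unoccupied genes, while the Sox cores AACAAT and ACAAAG have overlapping intervals.

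GAGA matches were more frequent in member genes both close to the start and farther upstream. In the bin from 100 to 50 bp before the start, 8.15% of member genes and 2.29% of unoccupied genes held one, the highest of all bins for both groups. Across 150 to 50 bp before the start the shares were 11.1% (9.24 to 13.2%) of member genes and 3.75% (3.37 to 4.17%) of unoccupied genes. From 500 to 250 bp before the start they were 9.72% (7.999 to 11.8%) of member genes and 3.09% (2.74 to 3.48%) of unoccupied genes. TATAAA in the 50 bp before the start was at 6.69% (5.27 to 8.45%) of member genes and 16.2% (15.5 to 17.0%) of unoccupied genes. In each of these 3 spans the intervals of member genes and unoccupied genes did not overlap. Around upstream summits, GAGA was not at the centre. It was found in 1.63% of the 100 bp on the distal side of the summit and 3.26% of the 100 bp on the side of the gene, against 7.82% and 7.49% in the next 100 bp on either side.

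**Figure D4:**
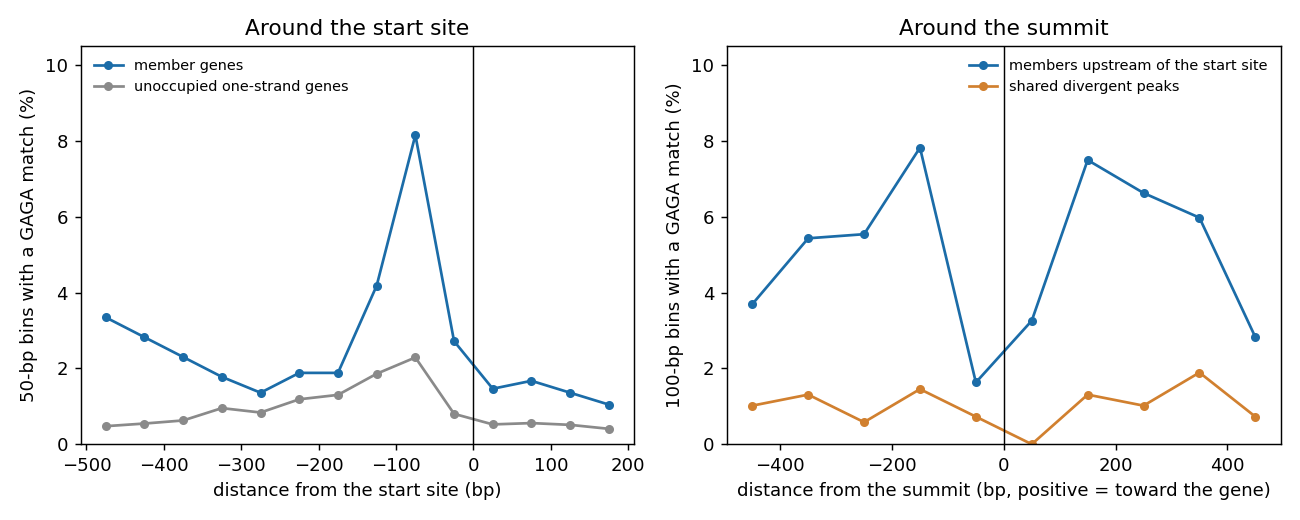
Share of bins with a GAGAGAG match (vertical axes, %): left, in 50-bp bins around the start sites of member genes and unoccupied one-strand genes; right, in 100-bp bins around the summits of upstream members and of shared divergent peaks (horizontal axes, bp). The left curve of member genes peaks at 8.15% between 100 and 50 bp upstream, and the right curve of members has its low of 1.63% beside the summit.

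Base composition changed steeply across these promoters. The GC content of member genes was lowest, at 34.4%, from 260 to 240 bp before the start, where unoccupied genes had 37.7%. It was 48.7% in the last 20 bp before the start of member genes and 44.4% in that of unoccupied genes. At the summits themselves the mean GC content within 100 bp was 34.8 ± 6.78% for members, 32.9 ± 5.66% for shared divergent peaks and 34.2 ± 5.76% for distant peaks (SD over peaks). Member summits thus lay in the AT-rich stretch ahead of the GC-rich start region.

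Member summits carried other sequences than shared divergent summits. Within 100 bp, GAGA was at 4.41% (3.33 to 5.81%) of 1066 members and 0.581% (0.226 to 1.48%) of 688 shared divergent peaks, a ratio of 7.58 (Fisher's exact test, two-sided, adjusted p = 3.96e-06). DRE and Motif 7, found at widely active genes, were lower in members, whereas Motif 1 (1.88% of members against 3.20% of shared divergent peaks) was not called by the same exact test (adjusted p = 0.126). DRE was at 3.10% of members and 6.83% of shared divergent peaks (exact test, adjusted p = 0.00133), and Motif 7 at 5.35% of members and 13.7% of shared divergent peaks (adjusted p = 4.03e-08). The E-box was at 7.60% of members and 12.1% of shared divergent peaks (exact test, adjusted p = 0.00604). TATAAA (37.0% against 46.1%), AACAAT (22.0% against 28.5%) and TAATTA (17.9% against 23.7%), were also lower in members by the same exact test (adjusted p = 7.19e-04, 0.00604 and 0.00693), but were not called in a logistic model with GC content and signal as covariates (adjusted p = 0.0703, 0.0571 and 0.0776). The odds ratios of members against shared divergent peaks with these covariates were 0.802 for TATAAA, 0.773 for AACAAT and 0.781 for TAATTA, and without them 0.686, 0.710 and 0.703. TAATTA was not called by the exact test without replicate 2 (adjusted p = 0.0529). Of the 7 motifs not called here, the initiator (17.4% of members against 13.7% of shared divergent peaks) was called higher in members by the exact test without replicate 3 (adjusted p = 0.0201). Motif 1 was called lower in members by the exact test among peaks matched in all 3 replicates (adjusted p = 0.0469) and within 250 bp of the summit (adjusted p = 4.49e-15), and by the logistic model with covariates (adjusted p = 0.0380). CA repeats were called higher in members by the exact test within 250 bp (ratio 2.87, adjusted p = 1.44e-08). Distant summits, given with no test, had TATAAA at 36.2%, AACAAT at 24.6% and TAATTA at 18.8%, near the shares of members. They had DRE at 0.321%, Motif 7 at 2.36%, the E-box at 5.39% and GAGA at 1.86%, all below the shares of members. Shared divergent summits lay closer to start sites, as given above, and the part of that distance was not tested. Within 50 bp of the summit, 0 of 14 motifs passed Fisher's test after adjustment, and 3 had an unadjusted p below 0.05. There GAGA was at 11 members and 0 shared divergent peaks.

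Some motifs in member promoters pointed in the direction of the gene. Among windows with matches on 1 strand only, the initiator was forward in 234 and reverse in 86 member promoters (73.1% forward, exact binomial test, two-sided, adjusted p = 6.23e-16). Motif 7 was forward in 58 and reverse in 24 (70.7%, exact test, adjusted p = 0.00122), TATAAA in 159 and 108 (59.6%, adjusted p = 0.00790) and Motif 1 in 35 and 17 (67.3%, adjusted p = 0.0482). Unoccupied promoters had 71.2% forward for the initiator, 68.2% for Motif 7, 64.9% for TATAAA and 82.9% for Motif 1, and no motif differed in direction between members and unoccupied genes after adjustment over 11 motifs. The smallest such adjusted p was 0.141, for Motif 1. GAGA had no direction, with 73 forward and 73 reverse. Of these 4 calls, only the initiator passed when the peaks were limited to those matched in all 3 replicates, with adjusted p by the exact binomial test of 0.0965 for Motif 1, 0.0899 for Motif 7 and 0.0905 for TATAAA. In the same exact test Motif 1 was not called without replicate 1 or replicate 2 (adjusted p = 0.0923 and 0.0611), Motif 7 not without replicate 2 (adjusted p = 0.0682) and TATAAA not without replicate 3 (adjusted p = 0.174).

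Promoters with GAGA also had the higher signals. Of the 159 member genes with GAGAGAG in the promoter, 49.1% (41.4 to 56.8%) had a peak in the strongest 25% of the reproducible set, against 27.6% (24.6 to 30.8%) of the 798 without it (Fisher's exact test on genes, added after seeing the data, two-sided, adjusted over 14 motifs, p = 4.14e-06). The median signals with and without GAGA were 313.8 and 214.2 in the pooled list, 167.0 and 106.3 in replicate 1, 83.1 and 57.2 in replicate 2 and 65.0 and 48.5 in replicate 3. Motif 1 went with lower signals, since 11.5% (5.40 to 22.97%) of 52 genes with it were in the strongest 25%, against 32.3% (29.3 to 35.4%) of 905 without it (exact test, adjusted p = 0.00752). DRE (20.3% against 31.8%) and Motif 7 (22.1% against 32.0%) were not called by the exact test (adjusted p = 0.282 for both). The sets hardly met. DRE, Motif 1 or Motif 7 was in 176 member promoters and GAGA in 159, and 8 held both, which is 5.03% of the GAGA promoters, against 21.1% of the member promoters without GAGA that held 1 of the 3 elements.

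The GAGA promoters of highest signal were those of ph-p, larp, CG18549 and gish, described above. They were followed by Fhos, a regulator of actin, with 1210 pooled and 635.6 and 311.0 in replicates 1 and 2 (no matching peak in replicate 3). Lpin, the phosphatidate phosphatase lipin, had 1082 pooled and 579.9, 281.0 and 230.4 in the replicates. The genes pdgy (1062) and Hexo2 (994.4) came next. The cell death activator hid had 966.0 pooled and 452.1, 323.2 and 199.0 in the replicates, with its nearest GAGA match 95 bp from the start. After the gene by (905.9), the transcription factor gene cbt had 905.2 pooled and 433.3, 281.9 and 179.4 in the replicates.

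The word TACGCCC, in capitals in the first set of sequences, was searched on both strands within 100 bp of all summits after it had been seen, and is given with no test. It was at 17 members (1.59%), of which 13 were among the 267 of highest signal, 3 among the next 267, 1 among the next 266 and 0 among the 266 of lowest signal. Of the 20 strongest members, 5 had it, namely CG14100, Ugalt, CG31145, CG1888 and Hsp27. Shared divergent peaks had the word at 15 summits (2.18%), a higher share than members, and at 3 of their 20 strongest. In successive groups of 172 peaks from high to low signal they had 7, 5, 2 and 1. Distant peaks had it at 27 summits (0.964%) and at 1 of their 20 strongest. In groups of 701, 700, 700 and 700 in the same order they had 9, 5, 5 and 8. It was found in 1.32% of all coding promoters, in windows from 250 bp before to 50 bp after the start. These are longer than the windows at summits, so the shares are not on a like basis.

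A ranking of all 7-base words found at 50 or more member summits, each against the window 400 bp farther upstream, put AGGGTAT first, with 55 summits and 15 flanks. AGGGTAT was at 5.16% of member, 2.62% of shared divergent and 6.71% of distant summits. CACAGTG followed, at 91 member summits (8.54%) and 28 flanks, and at 4.51% of shared divergent and 9.53% of distant summits. In the longer windows of all coding promoters its share was 3.86%. CAGTGTA was at 66 member summits (6.19%) and 22 flanks, and at 3.20% of shared divergent and 9.60% of distant summits. AACACTG, the next of 825 words, was at 54 member summits (5.07%) and 20 flanks, and at 8.43% of shared divergent and 3.25% of distant summits. So CACAGTG had its higher shares at members and distant peaks and AACACTG its highest at shared divergent peaks. These words were ranked on the members themselves and are descriptions.

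By gene, 976 of 10738 coding genes with a one-strand start site held a member, which is the background of 9.09% for the lists that follow. Lists were written from known functions, but with earlier results of these data known, and are given as counts with no test. Their shares are therefore not independent of the data. The lists were also not matched to the background for gene length or number of start sites, in which member and unoccupied genes differed. The part of these in the shares of the lists was not tested.

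Among genes of translation, ribosomal proteins of the cytoplasm had members at 21 of 58 one-strand genes (36.2%, 25.05 to 49.1%), with signals between 117.5 and 244.5 and a median of 160.1, against 216.0 over all members. The highest was RpS5a, a protein of the small subunit, with 244.5 pooled and 131.7, 66.6 and 44.3 in the replicates. RpL26, of the large subunit, followed with 219.2 pooled and 104.0, 63.3 and 47.3 in the replicates. Mitochondrial ribosomal proteins had 2 of 21, of which mRpL41 (2096) is among the strongest members and mRpL4 (117.9) among the weakest. Translation initiation factors had 3 of 30, and aminoacyl-tRNA synthetases 1 of 14. The other protein and energy machines were at or below the background, with 1 of 22 for the proteasome, 1 of 23 for the V-ATPase, 0 of 24 for complex I of respiration and 0 of 13 for splicing.

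Among signalling pathways, that of TOR and insulin, which couples growth to nutrients, had 7 of 17 (41.2%, 21.6 to 64.0%). Its strongest members were larp (1977), Sesn (1223), REPTOR, a transcription factor held back by TOR, with 661.4 pooled and 340.5, 164.5 and 161.7 in the replicates, and Pi3K21B, the adaptor of the insulin-driven lipid kinase, with 524.8 pooled. The weakest of the 7 was the insulin receptor InR itself, with 116.8. The Notch pathway had 7 of 23 (30.4%, 15.6 to 50.9%), led by the corepressor gro with 914.8 pooled and 446.5, 233.8 and 230.7 in the replicates. The Notch inhibitor numb had 805.4 pooled and 399.0 and 238.1 in replicates 1 and 2, with no matching peak in replicate 3, and the Notch target E(spl)m3-HLH had 657.5 pooled. The Wnt pathway had 4 of 22, led by the kinase genes gish (1397) and sgg (839.9), and the EGFR and Ras pathway 4 of 19, led by the ligand spi (665.6) and the inhibitor aos (483.9). The Hippo and Fat pathway had 3 of 14, with Mer (313.0), kibra (184.8) and hpo (147.3).

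Genes that respond to or carry the ecdysone signal, the hormone that drives metamorphosis at this stage, had members at 11 of 33 (33.3%, 19.8 to 50.4%). Sox14 (1653) and hid (966.0) led, followed by the transporter gene E23 with 790.4 pooled and 406.0, 216.8 and 152.9 in the replicates, and by Ldh, lactate dehydrogenase, with 557.9 pooled and 308.2, 134.9 and 114.5 in the replicates. The receptor and early genes were present at lower signals, and are named here after their values were seen. EcR, the ecdysone receptor, had 264.7 pooled and 133.6, 75.1 and 60.5 in the replicates. Eip75B, a nuclear receptor of the early response, had 471.5 pooled and 106.0 and 95.04 in replicates 2 and 3, with no matching peak in replicate 1. The ETS factor gene Eip74EF had 2 members, with 168.8 and 156.5.

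Of the lists on neural and chromatin genes, that of sensory bristles, where Sox15 is known to act, had 7 of 30 (23.3%, 11.8 to 40.9%). Its strongest members were numb (805.4), the neuronal RNA-binding protein gene elav with 749.8 pooled and 367.5, 199.5 and 178.7 in the replicates, the transcription factor gene lola with 726.5 pooled and msi, an RNA-binding protein of asymmetric division, with 511.4 pooled. Polycomb and trithorax genes had 5 of 20, led by ph-p (1994) and by Trl, which encodes GAGA factor itself, with 612.6 pooled and 273.1, 183.9 and 153.6 in the replicates. The Sox family had 2 of 8, Sox14 and Sox102F (224.3). Insulator and architectural proteins had 2 of 10, row (492.6) and BEAF-32 (253.6), and RNA polymerase II with its general factors 5 of 25, led by Taf4 (341.5). Chaperones had 5 of 29, with Hsp27 (1659) and Hsp26 (357.5) first, and sarcomere genes 3 of 25, led by tmod (386.0).

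The large families of cuticle proteins and chemoreceptors were nearly empty. Cuticle proteins had 0 of 119 (upper bound 3.13%), chemoreceptors 1 of 165 (0.606%, 0.107 to 3.35%), which was Gr77a at a signal of 118.7. The short list of Hox genes had 0 of 8 (upper bound 32.4%, which includes the background). Genes known by an annotation number only made up 30.2% of member genes and 49.2% of unoccupied one-strand genes.

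**Figure D5:**
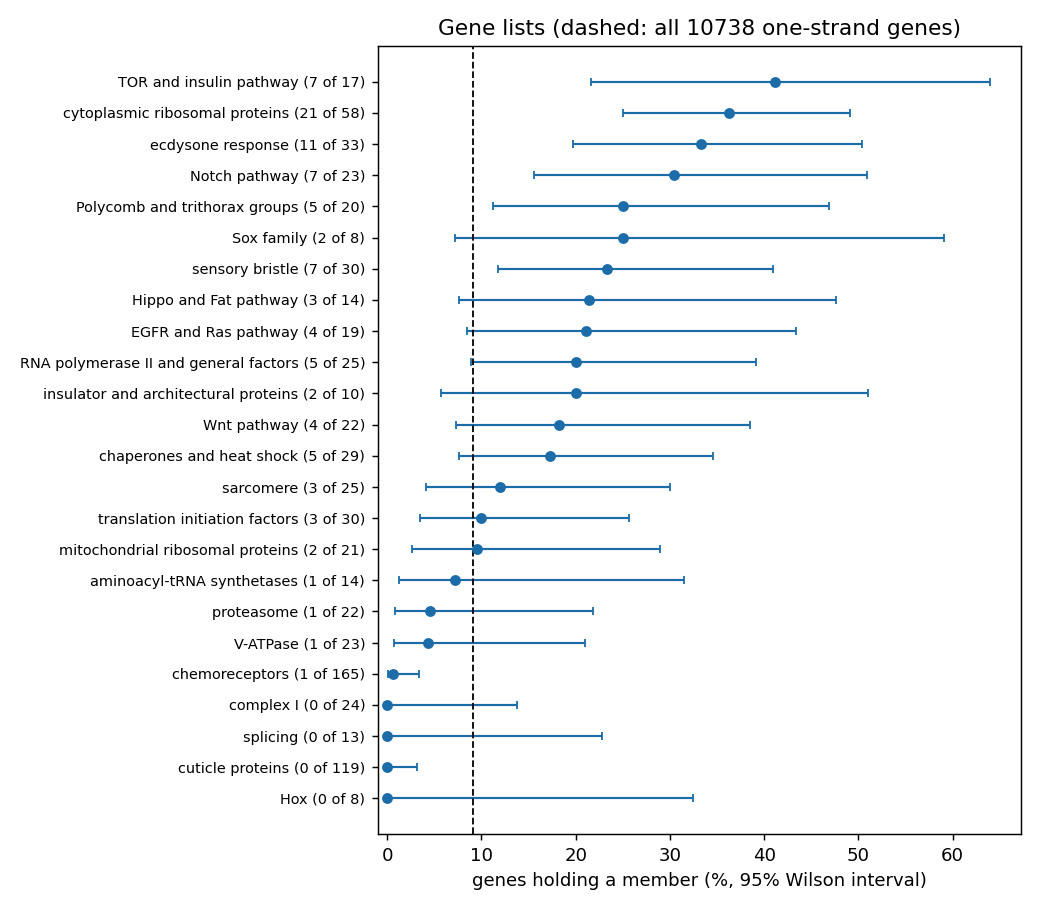
Share of the one-strand genes of each list that hold a member (horizontal axis, %, points with 95% Wilson intervals, counts beside the names of the lists), with the share over all 10738 such genes as a dashed line at 9.09%. TOR and insulin genes (41.2%), cytoplasmic ribosomal proteins (36.2%) and ecdysone genes (33.3%) have the highest shares, while cuticle proteins (0%) and chemoreceptors (0.606%) lie at the low end. The lists are not matched to the dashed line for gene length or number of start sites.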

How the data were processed

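ChIP-seq of Sox15-eGFP was measured in 3 biological replicates of whole prepupae. The values are peak lists on dm6: the relaxed list of each replicate (19304, 19033 and 16102 peaks), the pooled list (14164) and the optimal set by irreproducible discovery rate (4555). Each deposited peak has a signal of unstated scale, used only within 1 list, and a −log10 q-value from the authors. No source used here names the aligner or the peak caller. Read counts were not given, so the depth is unknown, and intervals (95% Wilson) cover counting error only.

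Start sites came from Ensembl release 115 and sequence from RefSeq Release 6. Scripts ran in Python 3.11.15 with pandas 2.3.3 and scipy 1.17.1 and were tested on simulated data. Tests were Fisher's exact and exact binomial tests and, with covariates, likelihood ratio tests in a logistic model. They were adjusted within a family by Benjamini-Hochberg with a threshold of 0.05, except where a p is not called adjusted. Named genes were the 20 members of highest signal, up to 4 per list and 3 on each side of the distance limit. Outside this rule, the text also names genes with several members, further GAGA promoters, InR, EcR, Eip75B and Eip74EF. Sequences were chosen among members of high signal off arm 2R, overall and per motif, and not every stronger member is shown. The rule for members used position alone, but the rule and the lists were settled with earlier results of these data known.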

Additional observations from a re-analysis of the deposited data

How the results depend on the processing

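Counting error and the unknown depth limit every share, and the signal has no stated scale. Among longer genes, a smaller set added after seeing the data (718 member genes and 3889 unoccupied genes), 1 of 14 motifs was called instead of 7, GAGA with a ratio of 1.69 instead of 2.53. At 50 bp from the summit, 0 of 14 motifs differed from shared divergent peaks instead of 7, and GAGA gave no ratio because 0 divergent peaks held it. The direction of motifs was called for 2 to 3 motifs without one replicate, for 1 in the upper 50% of peaks by signal and for 1 among peaks matched in all 3 replicates, instead of 4. The share of members matched in all 3 replicates was 94.3% when every relaxed peak counted, against 71.5%.

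The upstream share of 86.4% became 76.5% with a limit of 1000 bp, 82.8% with start sites of every biotype and 81.9% against the most upstream start. The share of one-strand genes occupied, 9.09%, became 6.94% with 250 bp, 11.5% with 1000 bp, 7.09 to 7.55% without one replicate and 5.06% with the upper 50% of peaks by signal. No called result changed direction. Among motifs that were not called, the ratio of DRE was 0.787 and that of Motif 1 was 0.820 in the longer genes, against 1.21 and 1.30 in all genes, and with GC content as a covariate both were called higher in the logistic model. The cause of these changes was not tested. No paired analysis was possible because all samples belong to 1 group.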
